A study of Betula luminifera with 4 samples.

Results

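The sequences described here are the members of 2 microRNA families in the birch Betula luminifera, miR395, a regulator of sulfate use, and miR169, a regulator of NF-Y transcription factors. They were taken as every entry of the miRNA table analysed here whose name gives either family number directly after miR, each distinct mature sequence once. This gave 7 of the 215 distinct sequences, 3 of miR395 and 4 of miR169. Small RNAs were sequenced from plants of 1 clone, G49#, grown on from tissue culture in pots of sand. The phosphate-deficient plants (LP) received a modified MS nutrient solution with no KH2PO4, and the control plants (CK) the same solution with 1.25 mM KH2PO4, its only source of phosphate. The potassium missing from the LP solution was made up with K2SO4, so the LP plants also received more sulfate, and the effects of less phosphate and more sulfate cannot be told apart. All plants were watered with deionized water for a time before the treatments, to use up stored phosphate. Each of the 4 groups, LP root, CK root, LP shoot and CK shoot, has 1 library, and each shoot library pooled equal amounts of stem and leaf RNA.

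With 1 library per group no difference has a replicate check, and no test was possible. The 95% intervals given after folds are exact intervals from the reads behind them and cover counting error only. The reads of the 215 sequences sum to 101816 in LP root, 308667 in CK root, 723599 in LP shoot and 1015833 in CK shoot, which are totals of the table and not of whole libraries. LP root is therefore the least precise library. Levels are the authors' normalized values, the raw reads times 1 constant per library. The table lists miRNAs only, so the tissue labels were not checked against root or shoot marker genes. In bulk tissue, fewer cells of a type and less RNA per cell cannot be told apart.

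Plant miRNAs are cut as a pair of strands from a hairpin precursor, and 1 strand then guides an Argonaute protein to messenger RNAs with a nearly complementary site. In Arabidopsis, miR395 targets ATP sulfurylase, which activates sulfate, and a low-affinity sulfate transporter, and its level is known to rise when sulfate is short. In the same plant, miR169 targets the A subunits of NF-Y, a trimeric transcription factor, and is known to fall when nitrogen is short.

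The mature sequences are shown because the length forms within a family differ by a few bases at their ends and had different levels. Capitals mark the seed, bases 2 to 8 from the 5′ end, and T stands for U as in the table.
miR395a: tGAAGTGTttgggggaact
miR395b: cTGAAGTGtttgggggaactc
miR395c-5p: gTTCCCTTgaccacttct
miR169a: tAGCCAAGaatgacttgcc
miR169b: tGAGCCAAgaatgacttgcc
miR169c: tGAGCCAAgaatgacttgccgac
miR169a-3p: gGCAGTCTctttggctagc
All 19 bases of miR395a lie within the 21-nt miR395b, starting at its base 2, so the seeds of both are the same stretch read 1 base apart. The 20-nt miR169b is the start of the 23-nt miR169c, and they share the seed GAGCCAA. The 19-nt miR169a has 18 bases in common with both, from its base 2 on, and its seed is AGCCAAG. miR395c-5p, of 18 nt, and miR169a-3p, of 19 nt, are named after the opposite arm and share runs of at most 5 bases with the other members. A 5′ T, the start of most plant miRNAs, is found in miR395a, miR169a, miR169b and miR169c, whereas miR395b starts with C, and miR395c-5p and miR169a-3p with G.

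Of the 7 sequences, the table marks 1, miR395b, as present in miRBase, the reference collection of miRNAs, and the other 6 as different from the entry they were matched to. miR395b was matched to an apple entry (mdm-miR395a) over all 21 bases. miR169b, miR169c and miR395a had no mismatch to their entries and differed in their ends. miR169a-3p differed from an Arabidopsis lyrata entry of the same length (aly-miR169n-3p) by 1 substitution, T18G. miR169a and miR395c-5p had 1 substitution each within the aligned bases, G9A against a poplar entry (ptc-miR169r) and A18T against an apple entry (mdm-miR395d-5p), and were also shorter than these entries. In these terms the reference base comes first, then the position counted from 1 at the 5′ end of the birch sequence, then the birch base.

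A precursor on the authors' assembled birch transcripts is listed for miR169a with miR169a-3p, for miR169b and for miR395a, and none for miR169c, miR395b and miR395c-5p. The hairpin listed for miR169a and miR169a-3p is shown because the ratio of these sequences differed between the tissues. It lies on the plus strand of transcript TRINITY_DN28896_c6_g4, positions 32 to 289, is 258 nt long, and its capitals mark the places of the 5′ and the 3′ arm.
miR169a precursor: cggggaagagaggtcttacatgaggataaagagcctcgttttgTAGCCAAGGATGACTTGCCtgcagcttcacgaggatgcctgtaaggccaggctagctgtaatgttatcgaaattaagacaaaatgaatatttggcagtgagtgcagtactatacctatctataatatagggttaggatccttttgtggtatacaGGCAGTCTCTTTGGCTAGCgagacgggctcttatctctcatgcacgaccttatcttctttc
In the table's structure for it, 17 of the 19 bases at the 5′ place pair with the 3′ place, and 135 bases lie between them. The folding energy listed is -105.1 kcal/mol and the folding index (MFEI, the energy scaled to length and GC content) 0.9. miR169a-3p matches this transcript exactly, but miR169a differs from it by G9A. The precursor of miR169b (TRINITY_DN24688_c1_g2, minus strand, 806 to 985) has an index of 0.5 and differs from miR169b by A15C. That of miR395a (TRINITY_DN24602_c0_g2, minus strand, 104 to 219) has an index of 0.7 and differs from miR395a by C19T. Thus 1 of the 4 sequences with a listed precursor is found letter for letter in it. Whether the other 3 came from these transcripts or from near-identical copies was not tested. miR169b is listed as a 3′ arm, whereas miR169a and miR169c, which share 18 and 20 bases with it, are listed as 5′ arms.

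miR395 was a minor family in all 4 libraries, at place 34 of 56 named families by level in LP root, 36 in CK root, 34 in LP shoot and 30 in CK shoot. Its sum was 62.8 in LP root (23 reads), 18.4 in CK root (18 reads), 45.6 in LP shoot (58.5 reads) and 120.4 in CK shoot (233 reads). On the authors' scale CK shoot was thus highest and CK root lowest, and LP root and LP shoot, in between, could not be told apart at this depth (LP root over LP shoot 1.38-fold, 0.817 to 2.28). As a share of the table's reads, LP root, at 0.0226% (0.0143% to 0.0339%), and CK shoot, at 0.0229% (0.0201% to 0.0261%), were not separated. The tissue gap was wide with phosphate, where roots held 6.55-fold less (4.05 to 11.2) than shoots.

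In roots the miR395 sum was 3.41-fold higher in LP than in CK (1.76 to 6.71), and in shoots it was 2.64-fold lower (1.99 to 3.61). In shoots TMM scaling, which shifts every log2 ratio by 0.39, brought this sum to a log2 ratio of -0.99, just under 2-fold. The 21-nt miR395b, the guide in its usual length, had normalized values of 30.03 in LP root and 13.3 in CK root, against 45.6 in LP shoot and 101.8 in CK shoot. It was 2.26-fold higher in LP roots, an interval (0.917 to 5.47) that includes equality because it rests on 11 and 13 reads, and a pseudocount of 10 took its log2 ratio to 0.78, under 2-fold. In shoots, with 58.5 reads in LP and 197 in CK, it was 2.23-fold lower (1.67 to 3.07). With median-of-ratios scaling the log2 ratio of miR395b in shoots was -0.98 and with TMM scaling -0.75, both under 2-fold.

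The shorter miR395a was listed in the same 2 libraries in which miR395b was the higher of its tissue. It had 12 reads in LP root and 0 in CK root, and 0 in LP shoot and 28 in CK shoot, that is normalized values of 32.8, 0, 0 and 14.5. No fold is given for it, since the table seldom lists a single read, in 5 of 705 values above 0, so that a listed 0 may hide a read. miR395a made up 52.2% of the miR395 reads in LP root (exact binomial interval 30.6% to 73.2%) and 12.0% in CK shoot (8.14% to 16.9%). The opposite-arm miR395c-5p had 0 reads in LP root, 5 in CK root, 0 in LP shoot and 8 in CK shoot, and stayed under a normalized value of 10 in all 4. Both miR395c-5p libraries with reads were CK libraries, the deeper library of each tissue by table reads. The interval of LP over CK was 0 to 2.92 in roots, which includes equality, and 0 to 0.885 in shoots. Here too a listed 0 may hide a read.

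**Figure D1:**
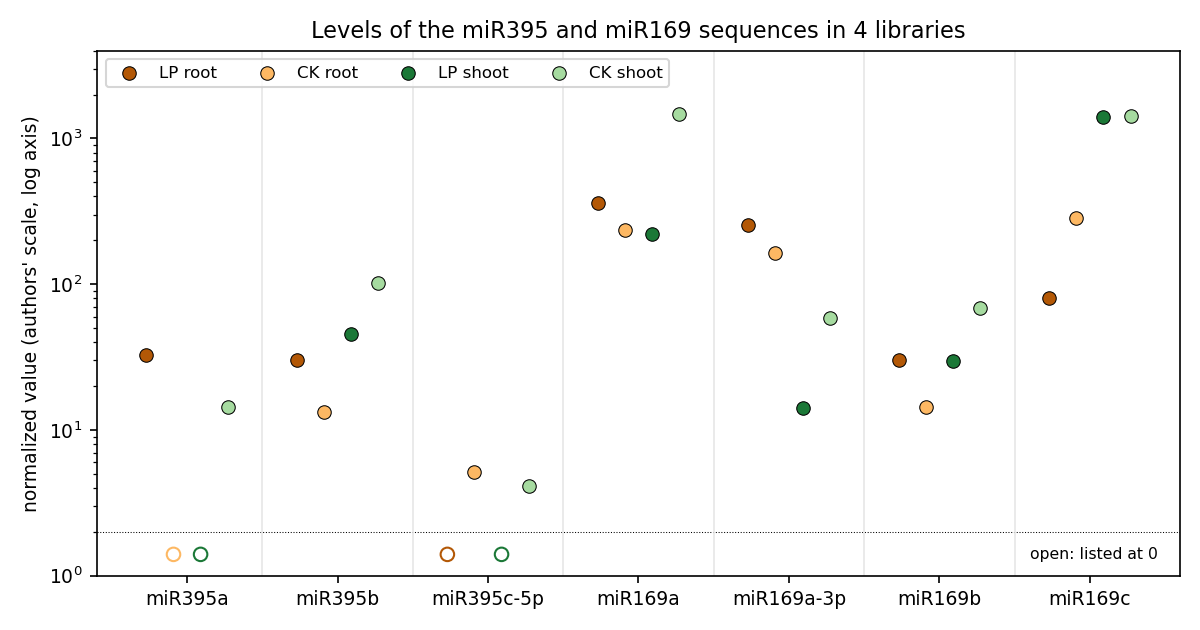
Normalized values, on a log axis, of the 3 miR395 and 4 miR169 sequences in LP root, CK root, LP shoot and CK shoot, 1 library each, with open symbols for values listed at 0. miR169a stood at 1479 in CK shoot and at 222 to 363 in the other 3 libraries, while miR169c stood above 1400 in both shoot libraries.

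miR169 was the more abundant family, at place 20 of the 56 families in LP root, 19 in CK root, 17 in LP shoot and 13 in CK shoot. Its sum was 727 in LP root, 698 in CK root, 1672 in LP shoot and 3028 in CK shoot. The root libraries could not be told apart by counting error (LP over CK 1.04-fold, 0.898 to 1.20), and both stood below the shoot libraries. As a share of the table's reads the sum was 0.262% in LP root, 0.221% in CK root, 0.296% in LP shoot and 0.577% in CK shoot, with LP root (0.231% to 0.295%) and LP shoot (0.284% to 0.309%) overlapping. In shoots the sum was 1.81-fold lower in LP (1.72 to 1.90), short of 2-fold. Each of these sums combined sequences with unlike ratios, so the members are given one by one.

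miR169a, the 19-nt guide form, had 363 in LP root and 237 in CK root, against 222 in LP shoot and 1479 in CK shoot, from 133, 232, 285 and 2862 reads. CK shoot stood apart from the other libraries, of which CK root and LP shoot overlapped within counting error (CK root over LP shoot 1.07-fold, 0.893 to 1.27). In shoots miR169a was 6.65-fold lower in LP (5.89 to 7.54), second from the lowest of 140 sequences. In roots it was 1.53-fold higher (1.23 to 1.90).

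miR169c, the 23-nt form, had 80.5 in LP root and 283 in CK root, against 1406 in LP shoot and 1422 in CK shoot. LP root was lowest, CK root in between, and the shoot libraries were high and close together. In roots it was 3.51-fold lower in LP (2.36 to 5.20), from 29.5 and 276.5 reads, the fractions coming from reads that the authors split. In shoots its LP over CK fold was 0.988 (0.931 to 1.05), and TMM scaling turned its log2 ratio of -0.02 to 0.38.

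miR169b, the start of miR169c without its last 3 bases, was rarer, at 30.03 in LP root and 14.3 in CK root, against 29.6 in LP shoot and 68.2 in CK shoot. It was 2.10-fold higher in LP roots (0.862 to 4.98), which rests on 11 and 14 reads and includes equality. It was 2.30-fold lower in LP shoots (1.59 to 3.39). Other settings took both under 2-fold: with TMM the log2 ratios were 0.97 in roots and -0.79 in shoots, with a pseudocount of 10 they were 0.72 and -0.98, and with the median of ratios the root value was 0.99.

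Since miR169c and miR169a moved apart, their ratio within each library, which no scaling touches, was taken. miR169c over miR169a was 0.222 in LP root (0.146 to 0.337) and 1.19 in CK root (0.995 to 1.42), against 6.32 in LP shoot (5.58 to 7.19) and 0.962 in CK shoot (0.913 to 1.01). The sequences were thus about equal in both CK libraries, and the LP libraries lay on opposite sides of them. The ratio was 5.37-fold lower in LP than in CK roots and 6.57-fold higher in LP than in CK shoots. miR169c held 11.1% of the miR169 reads in LP root and 40.5% in CK root, against 84.1% in LP shoot and 47.0% in CK shoot.

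**Figure D2:**
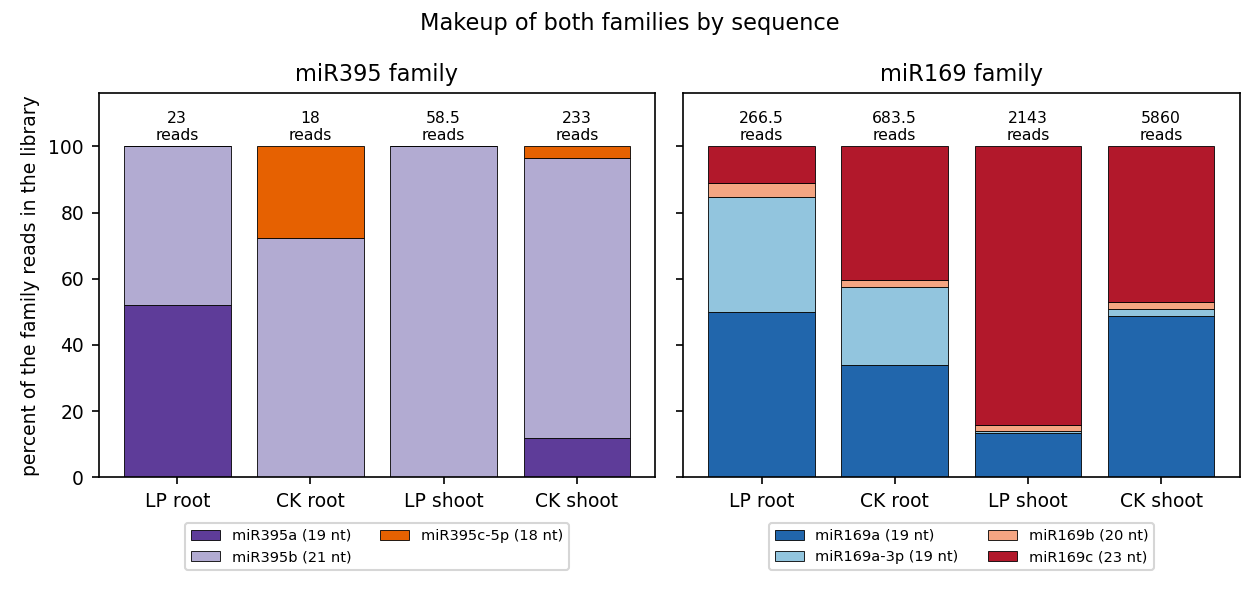
Share of each sequence in the reads of its family, in percent, for miR395 (left) and miR169 (right) in LP root, CK root, LP shoot and CK shoot, with the family's raw reads above each bar. miR169c held 11.1% of the miR169 reads in LP root and 84.1% in LP shoot, and the miR395 bars of both root libraries rest on 23 and 18 reads.

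Median ratios across the table differed with length. Among sequences other than the members that reached 10 in either library of the pair, those of 18 to 20 nt had a median log2 ratio of LP over CK of 0.84 in roots (26 sequences) and -1.07 in shoots (16 sequences). Those of 22 to 26 nt had -0.50 in roots (29 sequences) and 0.69 in shoots (41 sequences). Both classes held sequences of either sign. The short ones ranged from -0.95 to 3.88 in roots and -2.43 to 2.14 in shoots, the long ones from -4.94 to 4.68 and -2.67 to 2.42. The 19-nt miR169a, at 0.61 in roots and -2.73 in shoots, had the sign of the short median in both tissues. The 23-nt miR169c had that of the long median in roots, at -1.80, and stood at -0.02 in shoots. The 19-nt miR169a-3p, at 0.62 in roots and -1.98 in shoots, also had the sign of the short median. So did the 20-nt miR169b, at 1.02 and -1.18, and the 19-nt miR395a, with LP minus CK of 32.8 and -14.5. The 18-nt miR395c-5p did not reach 10. Other 21-nt sequences had medians of -0.04 in roots and -0.29 in shoots, and the 21-nt miR395b stood at 1.12 and -1.14. For root over shoot, other sequences of 18 to 20 nt had median log2 ratios of 2.75 under LP and 0.495 under CK. Those of 22 to 26 nt had -2.80 and -0.82, and both classes again held sequences of either sign. miR169a-3p, at 4.08 and 1.48, and miR169c, at -4.11 and -2.33, had the signs of their class medians. Under CK miR169a, at -2.64, miR169b, at -2.18, and miR395a, listed at 0 in roots, went against the short median. The part of length in these ratios was not tested.

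The opposite arm, miR169a-3p, separated the tissues in another way. Its normalized value was 254 in LP root and 165 in CK root, against 14.0 in LP shoot and 58.4 in CK shoot, from 93, 161, 18 and 113 reads. Both root libraries stood above both shoot libraries, the reverse of what miR169c showed. Root over shoot was 18.1-fold under LP (10.8 to 31.8) and 2.82-fold under CK (2.20 to 3.62). LP over CK was 1.54-fold in roots (1.18 to 2.00), and in shoots it was 4.16-fold lower in LP (2.52 to 7.27).

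Within a library, miR169a-3p over miR169a was 0.699 in LP root (0.531 to 0.918) and 0.694 in CK root (0.564 to 0.852), against 0.0632 in LP shoot (0.0369 to 0.102) and 0.0395 in CK shoot (0.0324 to 0.0477). It did not move with LP in roots beyond counting error, and the root values were 11.1 times the shoot value under LP and 17.6 times under CK. miR169a differs from the listed hairpin by G9A and shares 18 bases with miR169b and miR169c. Its reads may therefore come from other precursors, and whether this ratio is that of the arms of 1 hairpin was not tested. In the table, 18 distinct pairs of arms share a precursor position and stand at 10 or more in both CK libraries, with miR156a/b/c in 2 of them. The arm with fewer reads in CK shoot was taken as the minor arm. This choice caps the shoot ratio at equality but not the root ratio, which favours higher ratios in roots. In 13 of the pairs the ratio of minor to major arm under CK was higher in roots. In 9 pairs it differed at least 4-fold between the tissues, 8 of them higher in roots. The miR169a pair was second in size among the 18, so a higher share of the minor arm in roots, ranked in this way, was not particular to it. These pairs were examined after the values were seen.

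**Figure D3:**
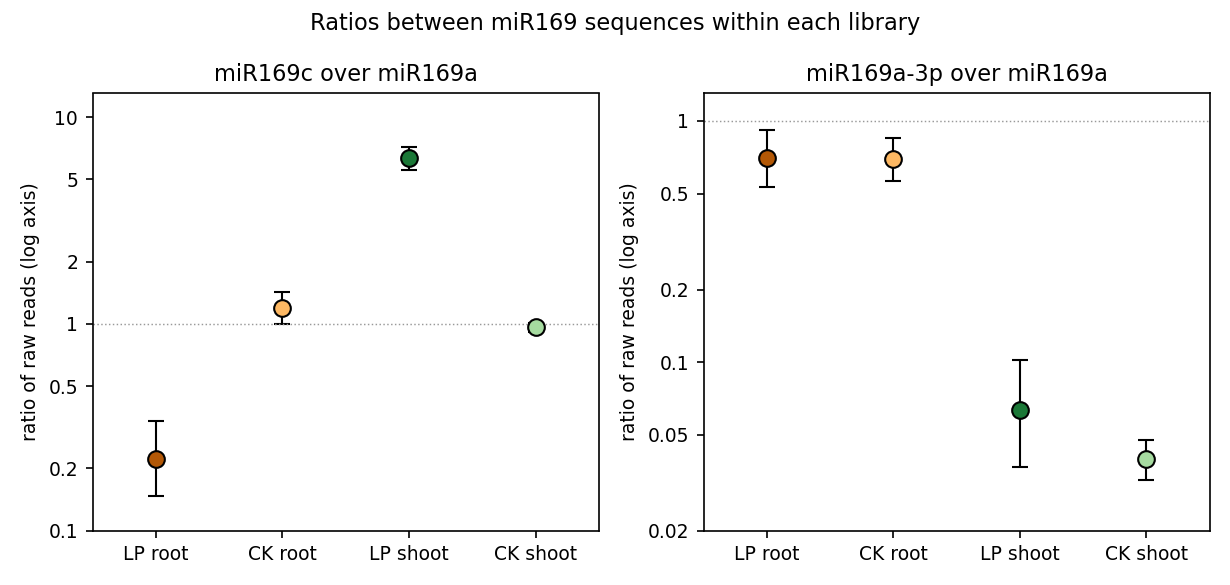
Ratio of raw reads of miR169c to miR169a (left) and of miR169a-3p to miR169a (right) within LP root, CK root, LP shoot and CK shoot, on log axes, with exact 95% counting intervals as bars. The left ratio is lowest in LP root at 0.222 and highest in LP shoot at 6.32, and the right one is near 0.7 in both root libraries and at most 0.0632 in the shoot libraries.

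Set against the whole table, a call here means at least 2-fold apart on the log2(value + 1) scale, with a level of 10 or more in either library, which 6 of the 7 members reached and miR395c-5p did not. In roots, miR395a, miR395b and miR169b were called higher in LP, and 23.8% of all 143 sequences were. miR169c was called lower, and 18.2% of all sequences were. In shoots, miR395a, miR395b, miR169a, miR169a-3p and miR169b were called lower, and 27.9% of 140 were, while no member was called higher and 17.1% of all were. The median log2 ratio of the members past the filter was 0.82 in roots and -1.58 in shoots, and over all sequences it was 0.07 and -0.23. The members overlap in sequence and are not separate replicates. miR395a, listed at 0 in a library of every pair compared, passed the filter only through the other library. Its calls could therefore go in a single direction.

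Of the members, 3 (miR395a, miR395b and miR169b) were called higher in LP roots and lower in LP shoots. Over the 117 sequences that met this minimum in roots and in shoots it held for 7, or 5.98%. miR395a met it in each tissue only through the library where it was listed, so its calls could go in a single direction. The root intervals of miR395b (0.917 to 5.47) and miR169b (0.862 to 4.98) include equality. miR395a and miR395b share 19 bases, and miR169b rests on 11 and 14 reads in roots. Whether roots and shoots differed in response was not tested.

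**Figure D4:**
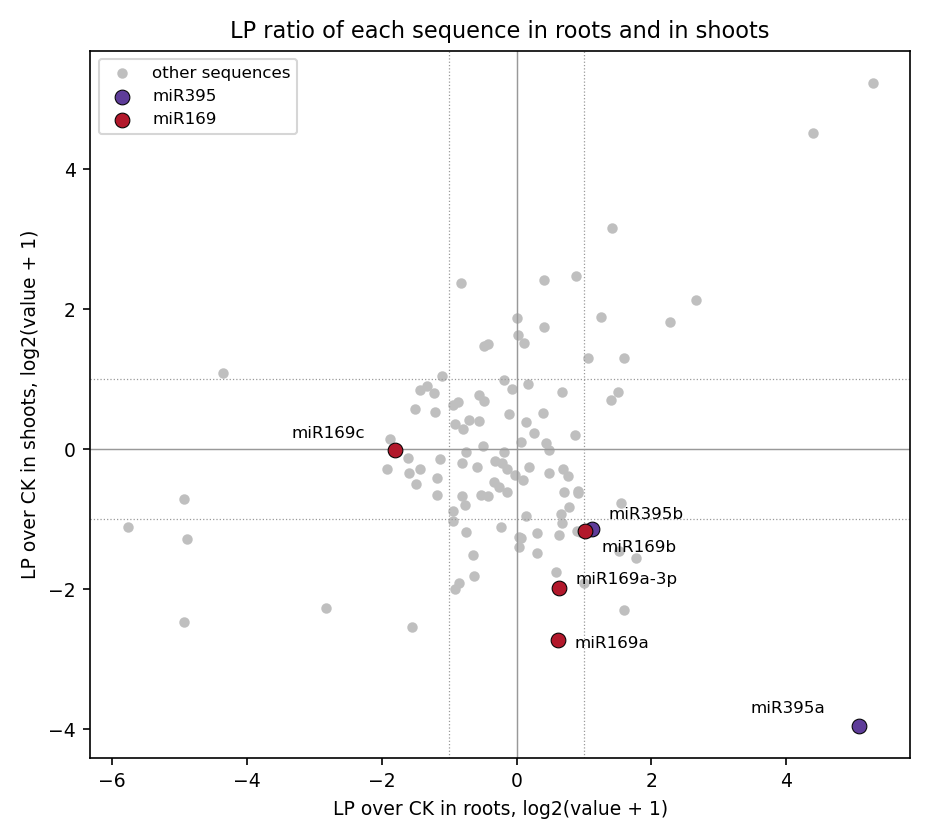
Log2 ratio of LP over CK after adding 1, in roots (horizontal) and in shoots (vertical), for the 117 sequences that reached 10 in each tissue, with miR395 and miR169 in colour and dotted lines at 2-fold. miR395b and miR169b lie just past 2-fold in the lower right, miR169c lies at -1.80 and -0.02, and the place of miR395a depends on the added 1 because 2 of its values are listed at 0.

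Between tissues, roots held less of the guide forms than shoots under CK. miR395b was 7.66-fold lower in roots (4.38 to 14.6), miR169a 6.24-fold (5.46 to 7.16), miR169c 5.03-fold (4.46 to 5.73) and miR169b 4.77-fold (2.74 to 8.96). With miR395a these were 5 members called lower, and miR169a-3p was called higher, against 37.3% and 26.1% of 142 sequences. Under LP the gap was wider for miR169c, 17.5-fold lower in roots (12.0 to 25.5). miR169a was then 1.63-fold higher in roots (1.32 to 2.01), and the counting intervals of miR395b and miR169b included equality. Of 158 sequences under LP, 34.2% were called higher in roots, among them miR395a and miR169a-3p, and 37.3% lower, among them miR169c. Scaling to the table total would raise every root over shoot log2 ratio by 1.02 under LP and by 0.73 under CK, and with it the LP log2 ratios were -0.18 for the miR169 sum (-1.20 on the authors' scale), 1.45 for the miR395 sum (0.45), 1.72 for miR169a (0.70), 1.01 for miR169b (0.018) and 0.41 for miR395b (-0.59).

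None of the other nutrient-related families measured was called lower with LP in either tissue. Of 12 such families listed for their roles in nitrogen, phosphate or copper supply, 7 reached a level of 10 in a library. In shoots, where miR395 was called lower, 6 of them were past the filter. Of these, 4 were called higher and 0 lower, against 17.1% and 27.9% of 140 single sequences. Those called higher were miR397, which targets laccases, at a log2 ratio of 2.44, miR408, which targets copper proteins, at 1.75, miR167, which targets auxin response factors, at 1.28, and miR398, which targets copper/zinc superoxide dismutases, at 1.00. Scaling to the table total, a shift of -0.11, would take miR398 under 2-fold. The phosphate family miR399 and the nitrate-linked miR393 stood at -0.42 and -0.15. In roots, where miR395 stood at 1.72 and miR169 at 0.06, 3 of 7 were called higher and 0 lower, against 23.8% and 18.2% of 143 single sequences. Those called higher were miR2111 at 1.99, from 10 and 6 reads (fold 1.47 to 14.9), miR398 at 1.41 and miR397 at 1.14. Also in roots, miR399 stood at 0.04, miR393 at 0.11, miR167 at 0.40 and miR408 at 0.41. The families past the filter were few, and no test compared them with these shares.

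The likeness of whole patterns was measured as the distance between centred log2(value + 1) values over the 4 libraries, among families that reached 10 in any of them. Nearest to miR395 was miR828, which targets MYB genes, at a distance of 0.52, followed by miR172 at 1.20 and miR159 at 1.23, against a median of 2.28 over 47 families. miR828 had 16.4 in LP root, 7.15 in CK root, 18.7 in LP shoot and 45.5 in CK shoot. Nearest to miR169 were miR536 at 0.32, miR159 at 0.56 and miR828 at 0.84, against a median of 2.20. miR159, which targets GAMYB genes, had the same order of libraries at far higher levels, 12507 in LP root, 8443 in CK root, 27234 in LP shoot and 62876 in CK shoot. miR536 was low, at 17.7 in LP root, 16.9 in CK root, 40.2 in LP shoot and 97.9 in CK shoot. The LP root values of miR828 and miR536 and the CK root value of miR828 rest on few reads, which limits these distances. miR395 and miR169 were at a distance of 1.35 from each other, place 4 from miR395 and place 12 from miR169. Over 4 libraries such distances describe the libraries only.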

How the data were processed

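Small RNA libraries of LP root, CK root, LP shoot and CK shoot were made with a TruSeq small RNA kit and read as 36-nt single reads by Illumina sequencing, per the labels' protocols. These also say that 54 plants were split between the treatments in a design with 3 blocks, which the labels do not tie to libraries. No label or header used here names the aligner, the counting program or the miRBase release, which are therefore not given in the sources used here.

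Raw columns hold estimated counts of reads per mature sequence as deposited by the authors, with fractions where reads were split. The normalized columns hold a signal, deposited by the authors, that equals the raw reads times 2.73 for LP root, 1.02 for CK root, 0.780 for LP shoot and 0.517 for CK shoot, a constant within each column. Precursor positions, structures and folding energies are the authors' own.

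From these, 221 rows were collapsed to 215 distinct sequences, none of the repeated rows being a member. A further 2 lines are blank in the table used here and were not analysed, so the members and family sums cover the filled rows only. Folds are ratios of normalized values with exact conditional (Clopper-Pearson) 95% intervals from the reads rounded to whole numbers. PCR copies are not separate molecules, so intervals cover counting error only. They were checked on simulated counts that held this error alone, so the check says nothing of other sources of spread. Log2 ratios were taken after adding 1, which understates changes of low values. No differential test was run, since each group has 1 library. All members are named, with the measured families of a nutrient list and the 3 families nearest in pattern to each. The nutrient list was miR826, miR5090, miR167, miR393, miR399, miR827, miR2111, miR778, miR397, miR398, miR408 and miR857. Members, list and naming rule were chosen with earlier results of these data known. Alternatives were scaling to the table total, TMM (edgeR 4.0.16) and median of ratios (DESeq2 1.42.0), pseudocounts of 0.5 and 10, rows as deposited, subsets of each family and no filter on low values. Python 3.11.15 and scipy 1.17.1 were used.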

Additional observations from a re-analysis of the deposited data

Results flagged for a closer look

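Some members went opposite ways with LP in roots and in shoots, each from 1 library per treatment, so the difference between the tissues was not tested. The log2 ratio of LP over CK was 1.72 in roots and -1.38 in shoots for the miR395 sum, 1.12 and -1.14 for miR395b, and 1.02 and -1.18 for miR169b. For miR395a, which is listed at 0 in CK root and in LP shoot, LP minus CK was 32.8 in roots and -14.5 in shoots in normalized values. The ratio of miR169c to miR169a in LP divided by that in CK was 0.186 in roots and 6.57 in shoots. The root values of miR395a, miR395b and miR169b rest on 11 to 14 reads per library where reads were listed. For sequences of 18 to 20 nt outside the members only the median had these signs, with log2 ratios of 0.84 in roots and -1.07 in shoots. Single ones ranged from -0.95 to 3.88 in roots and from -2.43 to 2.14 in shoots. miR395a and miR169b are of that length, and miR395b, of 21 nt, is not.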

How the results depend on the processing

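No library could be left out, and no paired analysis was possible because each group has 1 library and the labels give no replicate numbers. Of 108 alternative values of the sums, counts and ratios, 77 stayed within the counting interval (for counts of sequences, within 1.5 times), 30 moved beyond it and 1, a called ratio, changed sign. Of the 30, some were ratios under 2-fold that changed sign, and their values are given below. For single sequences 91 of 105 stayed within it and 0 called ratios changed sign. Pairs with a sequence listed at 0 in either library were left out. The alternatives thus did not cover miR395a, and covered miR395c-5p in root over shoot under CK only.

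The shifts of every log2 ratio were 0.18 in roots and -0.11 in shoots for the table total, -0.05 and 0.39 for TMM, and -0.03 and 0.16 for the median of ratios. The miR395 sum stayed at least 2-fold apart in roots under all alternatives, and in shoots under all but TMM, where it was -0.99. In roots its subset of miR395b alone, at 1.12, was judged by the interval of the sum. The fold interval of miR395b itself (0.917 to 5.47) includes equality. In shoots the miR169 log2 ratio, -0.86, was -0.96 with the table total, -0.46 with TMM and -0.69 with the median of ratios. Its most abundant sequence, miR169c, alone gave -0.017, and the 20 to 22 nt sequence, miR169b, gave -1.18. In roots the miR169 value of 0.06 was -1.80 with miR169c alone, 1.02 with miR169b alone and -0.17 without the opposite arm. Root over shoot under LP, the miR395 value of 0.45 was 1.45 with the table total and -0.59 with miR395b alone, which is both the most abundant sequence and the one of 20 to 22 nt. The miR169 value of -1.20 was -0.18 with the table total, -1.53 with TMM, -4.11 with miR169c alone and -1.81 without the opposite arm. With miR169b alone it reversed to 0.018. Root over shoot under CK, miR395, at -2.65, was -1.93 with the table total. There miR169, at -2.11, was -1.38 with the table total, -2.00 with TMM, -1.86 with the median of ratios, -2.33 with miR169c alone and -2.47 without the opposite arm. The causes were not tested, beyond the members that each subset holds.

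Counts over the whole table moved without a filter on low values, to 60 lower in roots (26 with it), 38 higher and 62 lower in shoots (24 and 39), 91 lower in root over shoot under LP (59) and 80 lower under CK (53). TMM gave 47 higher and 22 lower in shoots, and the table total 84 higher and 36 lower in root over shoot under LP (54 and 59). Adding miR169b to miR169c, an alternative chosen after seeing the data, left its ratio to miR169a within the counting interval in all 4 libraries, at 0.305 in LP root, 1.25 in CK root, 6.46 in LP shoot and 1.01 in CK shoot. Depth limits miR395 and miR169b in roots most, where LP root holds 23 reads of miR395 in all.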

Other observations

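miR169b is the start of miR169c, and the ratio between these nested sequences also differed among the libraries. It was 0.373 in LP root (0.166 to 0.753), 0.0506 in CK root (0.0274 to 0.0866), 0.0211 in LP shoot (0.0149 to 0.0291) and 0.0480 in CK shoot (0.0400 to 0.0571). LP root stood apart from the other 3, from 11 reads of miR169b and 29.5 of miR169c. The interval of LP shoot also lay below that of CK shoot, from 38 and 132 reads of miR169b. Within the miR169 reads, miR169a-3p held 34.9% in LP root and 23.6% in CK root, against 0.840% in LP shoot and 1.93% in CK shoot.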
